A study of Mus musculus with 17 samples.

Results

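The comparison described here is that of LLC + rFibcd1 with LLC, which is recombinant Fibcd1 against mock injection in mice that carry tumors. Its members are 7 of the 17 mice in the series, 4 LLC + rFibcd1 and 3 LLC mice, chosen by their group labels, and the readout is RNA-seq of the diaphragm. All 17 mice were male C57BL/6J mice aged 4 months. LLC mice were given Lewis lung carcinoma cells, a lung tumor line of the same mouse strain, under the skin of the flanks, and tumors grew for about 3 weeks. In the last part of that time LLC + rFibcd1 mice received repeated intraperitoneal injections of rFibcd1, the recombinant C-terminal part of mouse Fibcd1, and LLC mice received mock injections of buffer with albumin. The tumor-free mice, 5 Control (mock) and 5 Control + rFibcd1, entered the same model and are used to show where a value lies without a tumor. The tumor is a transplanted cell line and the treatment is an injected protein fragment, so no gene of the mice themselves was altered. The question was which diaphragm transcripts differ when tumor-bearing mice are given rFibcd1.

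The diaphragm is a thin, constantly active sheet of muscle that drives breathing. It is rich in mitochondria and mixes slow and fast fibers, and its weakness is part of cancer cachexia, the loss of muscle that accompanies many tumors. Fibcd1 is a protein with a fibrinogen-like domain that binds acetylated sugars and occurs as a membrane protein and as a shed fragment. Levels below are TPM (transcripts per 1000000), in which the reads of a gene are divided by its length and scaled to a fixed sum per mouse, so levels of different genes can be compared. Fold changes written as log2 are on the scale log2(TPM + 1) with standard errors, and they understate the change of genes with few TPM.

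Defining transcripts of skeletal muscle were high in all 7 mice. In the 7 mice Acta1, skeletal actin, lay between 19855 and 23362 TPM, Ckm, muscle creatine kinase, between 4216 and 4970 TPM, and Myh1, a fast myosin heavy chain, between 2527 and 4180.0 TPM. Fibcd1 itself was at most 0.0352 TPM in any mouse and was not tested. The estimated depth of the 17 libraries was 50.7 to 54.5 in units of 1000000 reads, which corresponds to 23.9 to 26.7 reads per TPM in a gene of 1 kb. The B cell list, 16 transcripts of antibody-producing lymphocytes and their precursors, set mice of the same group apart. Its summed level was 3207, 4459.8 and 2981 TPM in LLC replicates 1 to 3 and 253, 1870.4, 3369 and 193 TPM in LLC + rFibcd1 replicates 1 to 4. LLC + rFibcd1 replicates 1 and 4 were thus low, replicate 3 lay within the LLC range and replicate 2 between. The first principal component of the 7 mice carried 55.1% of the variance and also had LLC + rFibcd1 replicates 1 and 4 at its low end, with LLC mice at 24.0, 20.9 and 31.8 and LLC + rFibcd1 mice at -42.2, 0.845, 15.01 and -50.5. The 15 genes with the lowest loadings on it were transcripts made by the liver, led by Alb (albumin), Hpx and Apoa1, and the 15 with the highest were immunoglobulin genes. Whether this reflects fewer cells of a type or less RNA per cell cannot be told apart in bulk tissue.

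A small set of genes differed at the strict threshold. Of 13305 genes tested, 15 (0.113%) passed an adjusted p of 0.05 (limma), 8 higher (0.0601%) and 7 lower (0.0526%) in LLC + rFibcd1. In every one of the 15, no LLC + rFibcd1 mouse overlapped any LLC mouse. Genes of muscle fibers and of the circadian clock were among them, as were immunoglobulin segments. At an unadjusted p under 0.05, 727 genes (5.46%) were higher and 2298 (17.3%) lower, and with a change of at least 1.5-fold as well these were 23 (0.173%) and 521 (3.92%). The groups did not overlap in 700 genes (5.26%) that were higher and 1237 (9.3%) that were lower. A log2 fold change above 0 was found in 3589 genes (27%), and the median of all genes was -0.11, so a list is read below against that value.

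The split of directions depended on the scaling. Higher genes were 24.0% of those with an unadjusted p under 0.05 in the deposited TPM, 40.7% after rescaling without mitochondrially encoded transcripts, 56.6% after median-ratio scaling and 72.7% after quantile normalization, and the median log2 fold change of all genes was -0.11, -0.07, -0.01 and 0.06 in that order. The count of 15 rested on single mice and on the model. It was 0 without LLC replicate 1, LLC + rFibcd1 replicate 1 or LLC + rFibcd1 replicate 4, 1 without LLC replicate 3, 28 without LLC replicate 2, 29 without Control + rFibcd1 replicate 1, 6 without Control replicate 1 or Control + rFibcd1 replicates 2 or 5, and 88 without LLC + rFibcd1 replicate 3. No gene was called when the model held the 7 mice alone, with Dunn's test or when a B cell score was fitted, with 2168, 305 and 843 genes at an unadjusted p under 0.05. The group sizes bound the p of Dunn's test, so its 0 over so many genes was near fixed in advance. The B cell score was the mean log2(TPM + 1) of the B cell list without its immunoglobulin genes Ighm and Ighd in each mouse. With it 3.62% of all genes were higher and 2.71% lower at that p, against 1.44% and 0.857% with Dunn's test. Without LLC replicate 1 or LLC + rFibcd1 replicates 1 or 4, which gave no call, 1872, 1658 and 1533 genes had an unadjusted p under 0.05. Lower genes at that p were 9.07%, 22.8% and 4.86% of all genes without LLC replicates 1 to 3. They were 7.4%, 24.7%, 21.3% and 6.93% without LLC + rFibcd1 replicates 1 to 4, and 21.8% without Control + rFibcd1 replicate 1. Higher genes were 3.46% to 5.64% when 1 mouse was left out. Counts below for a left-out mouse are read against these shares.

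**Figure D1:**
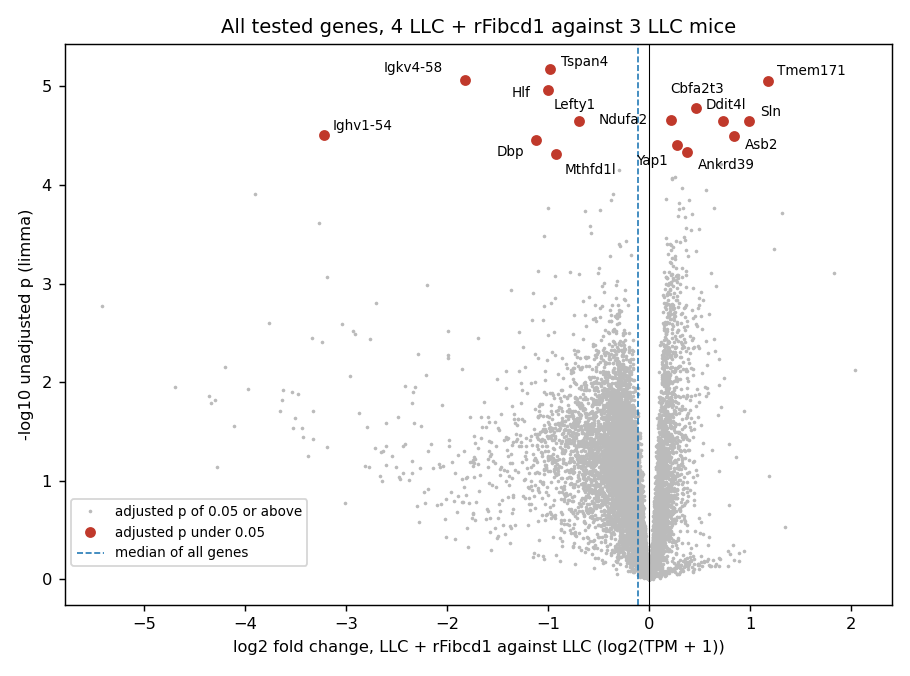
Each point is 1 of the 13305 genes tested, with the log2 fold change of LLC + rFibcd1 against LLC on the x axis and -log10 of the unadjusted limma p on the y axis. The 15 genes with an adjusted p under 0.05 are red and named, 8 to the right and 7 to the left of 0, and the dashed line marks the median of all genes at -0.11.

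Among the genes that rose, Sln had the largest level. Sln, ENSMUSG00000042045 (chr9:53850164-53854560, plus strand of GRCm38), encodes sarcolipin, a small membrane protein that inhibits the calcium pump of the sarcoplasmic reticulum. It was at 574, 897 and 567 TPM in the 3 LLC mice and at 1508, 1239, 1538 and 1059.8 TPM in the 4 LLC + rFibcd1 mice. Every treated mouse was above every mock-treated one, by 1.97-fold in the mean (log2 0.99 ± 0.16, adjusted p = 0.0334). Control mice averaged 918 ± 94.3 TPM (SD, n = 5) and Control + rFibcd1 mice 762 ± 92.5 TPM (SD, n = 5), so the LLC + rFibcd1 mean was above and the LLC mean below both tumor-free means.

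Asb2 (chr12:103321142-103356001, minus strand) encodes a subunit that gives a ubiquitin ligase its substrates and acts in muscle on filamins and desmin. Its level was 103, 128 and 103 TPM in LLC and 209, 194, 193 and 202 TPM in LLC + rFibcd1. The treated mice lay close together and rose 1.79-fold (log2 0.84 ± 0.14, adjusted p = 0.0383), against 138 ± 18.7 TPM in Control (SD, n = 5). Ddit4l (chr3:137621612-137628333, plus strand), also called Redd2, encodes an inhibitor of mTORC1 signaling. It was at 60.2, 68.2 and 56 TPM in LLC and 115, 93.6, 108 and 95.7 TPM in LLC + rFibcd1, a rise of 1.68-fold (log2 0.73 ± 0.12, adjusted p = 0.0334). Its mean in Control was 84.5 ± 12.6 TPM (SD, n = 5), between the groups with tumors. Ddit4l was lower in LLC than in Control, by a log2 of -0.44 (adjusted p = 0.0143), and Sln likewise, by -0.46 (adjusted p = 0.0344).

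Ndufa2 (chr18:36742332-36744557, minus strand), an accessory subunit of respiratory complex I, rose by a small but uniform step. The LLC mice had 474, 485 and 449.6 TPM and the LLC + rFibcd1 mice 558, 536, 553 and 539.6 TPM, or 1.16-fold (log2 0.22 ± 0.04, adjusted p = 0.0334). Control mice, at 527 ± 10.5 TPM (SD, n = 5), lay above LLC (log2 -0.17 in LLC against Control, adjusted p = 0.00973). Ankrd39 (chr1:36537507-36547445, minus strand), an ankyrin-repeat protein, went from 4.0, 4.33 and 4.66 TPM to 5.92, 5.85, 6.20 and 5.71 TPM, with no overlap (log2 0.38 ± 0.07, adjusted p = 0.0432).

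Transcriptional regulators and a membrane protein made up the rest of the genes that rose. Yap1 (chr9:7931999-8004596, minus strand) encodes the coactivator that the Hippo pathway restrains and that promotes growth in many tissues. It was at 14.7, 15.5 and 15.2 TPM in LLC and 18.3, 18.5, 19.1 and 18.5 TPM in LLC + rFibcd1 (log2 0.28 ± 0.05, adjusted p = 0.0402). The spread within each group was under 1 TPM. Cbfa2t3 (chr8:122625141-122699109, minus strand), a corepressor of the ETO family, was at 12.5, 12 and 12.3 TPM in LLC and at 15.9, 17.7, 18.7 and 16.9 TPM in LLC + rFibcd1, 1.41-fold higher in the mean (log2 0.46 ± 0.07, adjusted p = 0.0334). Tmem171 (chr13:98686235-98694834, minus strand), a transmembrane protein, was near the filter in LLC mice, at 0.608, 1.69 and 0.705 TPM, and at 4.06, 2.65, 3.68 and 3.37 TPM in LLC + rFibcd1. That is 3.44-fold (log2 1.18 ± 0.18, adjusted p = 0.0334). For Cbfa2t3 and Tmem171 the LLC mean differed little from that of Control, which was 12.5 ± 0.862 and 0.970 ± 0.323 TPM (SD, n = 5).

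**Figure D2:**
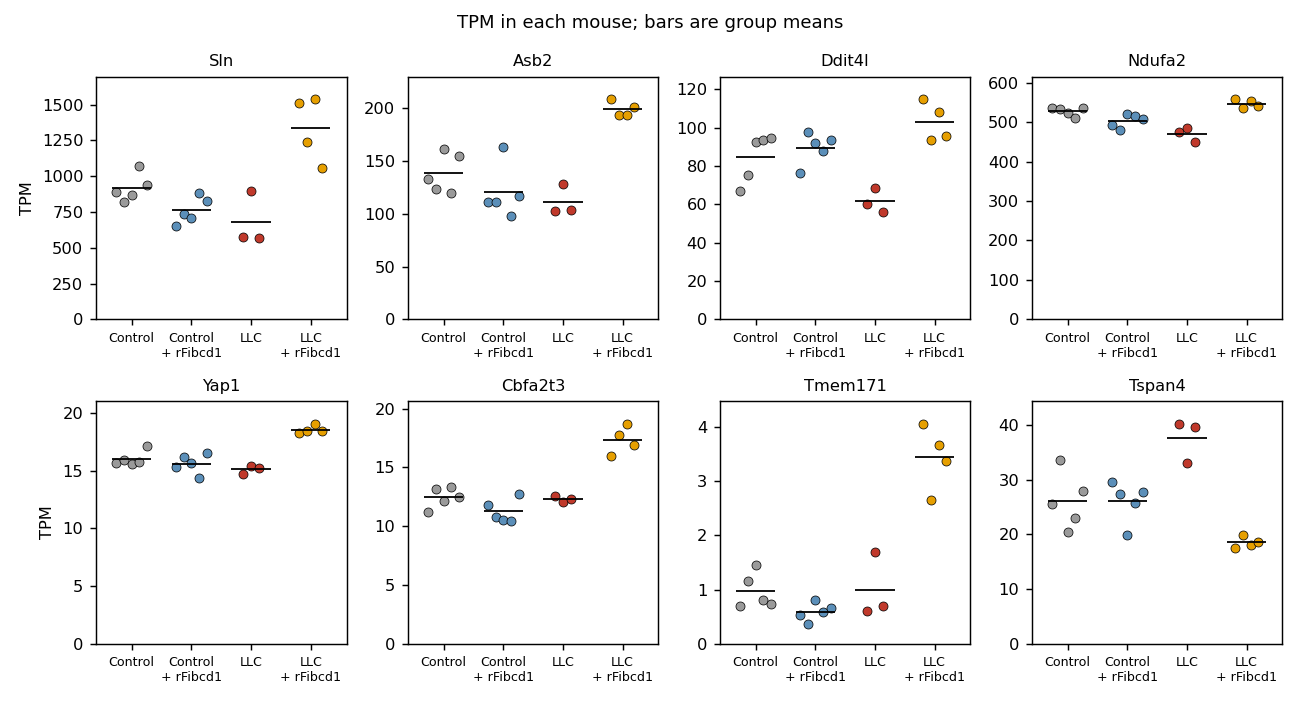
TPM of 8 of the 15 genes in each mouse of the 4 groups, 1 point per mouse with bars at the group means. LLC + rFibcd1 lies above LLC without overlap for Sln, Asb2, Ddit4l, Ndufa2, Yap1, Cbfa2t3 and Tmem171 and below it for Tspan4.

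Of the genes that fell, Tspan4 (chr7:141475240-141493427, plus strand) had the smallest p. It encodes a tetraspanin of membranes and of the vesicles that migrating cells leave behind. LLC mice were at 40.3, 33.1 and 39.7 TPM and LLC + rFibcd1 mice at 17.6, 19.9, 18 and 18.6 TPM, so the level was 0.491 times that of LLC (log2 -0.98 ± 0.15, adjusted p = 0.0334). Control mice were between them at 26.1 ± 5.10 TPM (SD, n = 5), and LLC was above Control by a log2 of 0.53 (adjusted p = 0.0144). Lefty1 (chr1:180935022-180938400, plus strand), a secreted inhibitor of Nodal signaling, was at 2.94, 3.18 and 3.13 TPM in LLC and 1.66, 1.73, 1.37 and 1.34 TPM in LLC + rFibcd1 (log2 -0.70 ± 0.12, adjusted p = 0.0334). Mthfd1l (chr10:3973118-4167081, plus strand), an enzyme of mitochondrial folate metabolism that makes formate, was at 2.28, 1.91 and 3.06 TPM in LLC and 0.528, 0.702, 1.45 and 0.574 TPM in LLC + rFibcd1 (log2 -0.93 ± 0.16, adjusted p = 0.0432). Both sets of values were low but did not overlap.

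Antibody variable segments also fell, although the close likeness of such segments makes the level of any one of them uncertain. Igkv4-58 (chr6:69500254-69500786, minus strand) was at 7.28, 4.12 and 3.69 TPM in LLC and 0.327, 0.557, 1.30 and 0.547 TPM in LLC + rFibcd1 (log2 -1.83 ± 0.28, adjusted p = 0.0334). Ighv1-54 (chr12:115193675-115194134, minus strand) was at 20.4, 31.1 and 4.82 TPM in LLC, and in LLC + rFibcd1 it was listed at 0 in replicates 1 and 4 and at 2.43 and 1.44 TPM in replicates 2 and 3 (log2 -3.22 ± 0.55, adjusted p = 0.0383). Of 166 immunoglobulin segments tested, 162 were below 0 in log2 fold change, 67 of them at an unadjusted p under 0.05, and 33 had no overlap between the groups. Over all genes 17.3% were lower at that p, 9.3% were lower without overlap and 27% were above 0.

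The remaining genes that fell belong to the circadian clock. In this oscillator the activators Arntl (Bmal1) and Clock bind E-boxes and drive transcription of the repressors Per and Cry and of Dbp, Tef and Hlf, the PAR bZIP factors. The PAR bZIP factors in turn act on D-boxes, where Nfil3 opposes them, and the receptors Nr1d1, Nr1d2 and Rora act on elements known as RORE, also at Arntl. Transcripts of the activators and of the output genes therefore peak at different hours of the day. Muscle has a clock of its own that responds to feeding, activity and hormones. The hour of dissection is not given in the sources used here, so its part in what follows was not tested.

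Promoters of these genes were read from RefSeq on GRCm38.p6 as windows of 300 bases, 250 before and 50 after the start. Of 19 clock genes tested, 16 had a window. The letters CACGTG (E-box), TTATGTAA (D-box) and TAGGTCA (RORE) were searched on both strands, and no printed match overlaps another motif. The E-box letters were in a window of 5 genes (Tef, Per1, Cry1, Bhlhe41 and Ciart), the D-box letters in 1 (Per3) and the RORE letters in 2 (Nfil3 and Arntl). Counted by window, as some genes have several, these were 6, 1 and 2 of 24, and over all 32851 promoter windows the shares were 7.15%, 0.938% and 2.61%. Of the windows that hold the letters, 4 are shown as examples, 1 for each of 4 genes whose transcripts did not overlap between LLC and LLC + rFibcd1, with the letters in capitals. The windows of Per1, Cry1, Bhlhe41 and Nfil3 and the other Tef window with an E-box are not shown. The Per3 window (chr4:151044616-151044915, minus strand) holds the D-box letters in 2 places, the Ciart window (chr3:95882179-95882478, minus strand) the E-box letters in 3, the Tef window (chr15:81802423-81802722, plus strand) an E-box, and the Arntl window (chr7:113207261-113207560, plus strand) a RORE.
Per3: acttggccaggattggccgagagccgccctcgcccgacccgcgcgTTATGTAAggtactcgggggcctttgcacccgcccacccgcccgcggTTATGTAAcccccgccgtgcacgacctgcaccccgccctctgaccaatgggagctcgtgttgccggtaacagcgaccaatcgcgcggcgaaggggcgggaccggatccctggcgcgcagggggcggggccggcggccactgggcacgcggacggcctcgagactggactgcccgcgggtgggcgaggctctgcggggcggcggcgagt
Ciart: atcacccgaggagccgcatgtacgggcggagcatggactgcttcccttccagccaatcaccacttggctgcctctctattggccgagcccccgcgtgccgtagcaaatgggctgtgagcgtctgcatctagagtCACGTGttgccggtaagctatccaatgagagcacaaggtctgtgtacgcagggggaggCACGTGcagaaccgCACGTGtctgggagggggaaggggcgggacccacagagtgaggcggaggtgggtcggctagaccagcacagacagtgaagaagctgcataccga
Tef: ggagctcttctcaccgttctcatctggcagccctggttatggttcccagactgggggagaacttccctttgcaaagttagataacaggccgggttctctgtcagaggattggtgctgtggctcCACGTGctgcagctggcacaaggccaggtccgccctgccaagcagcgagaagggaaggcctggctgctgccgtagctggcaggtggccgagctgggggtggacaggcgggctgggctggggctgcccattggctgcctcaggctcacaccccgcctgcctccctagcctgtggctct
Arntl: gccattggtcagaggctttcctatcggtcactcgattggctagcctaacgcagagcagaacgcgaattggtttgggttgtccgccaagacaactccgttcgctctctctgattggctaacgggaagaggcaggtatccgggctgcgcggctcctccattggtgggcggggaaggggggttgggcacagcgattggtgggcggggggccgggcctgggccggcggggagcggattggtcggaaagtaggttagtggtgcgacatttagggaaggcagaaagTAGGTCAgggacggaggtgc
The windows of Dbp and Hlf hold none of these letters. A match is a description of the sequence and says nothing of which factor was bound.

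PAR bZIP transcripts were lower in every LLC + rFibcd1 mouse than in any LLC mouse. Dbp (chr7:45705088-45710203, plus strand) was at 154, 123 and 146 TPM in LLC and 73.4, 47, 70.1 and 70.3 TPM in LLC + rFibcd1, 0.463 times the LLC mean, and it fell (log2 -1.12 ± 0.19, adjusted p = 0.0383). Control and Control + rFibcd1 averaged 159.7 ± 22.1 and 144 ± 33.7 TPM (SD, n = 5), close to LLC. Hlf (chr11:90336536-90390895, minus strand) was at 7.98, 6.81 and 7.76 TPM in LLC and 3.48, 3.01, 3.04 and 3.47 TPM in LLC + rFibcd1 (log2 -1.0 ± 0.16, adjusted p = 0.0334), against 8.16 ± 1.59 TPM in Control (SD, n = 5). Tef, whose window with the E-box is shown above, was at 75.6, 58.5 and 67.5 TPM and 45.9, 32.2, 47.5 and 47.3 TPM without overlap, but its adjusted p was 0.0714 (log2 -0.63 ± 0.13). Summed over these 3 genes and Nfil3, the level was 248, 206 and 237 TPM in LLC and 135, 99.8, 141 and 149 TPM in LLC + rFibcd1. LLC + rFibcd1 replicate 2 was the lowest of the 7 mice in each of Dbp, Tef and Hlf. Nfil3, the opposing repressor, was at 10.1, 17.8 and 15.9 TPM and 12.5, 17.6, 20.8 and 27.9 TPM, with overlap (adjusted p = 0.593).

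Core clock transcripts lay in both directions, and none passed the adjusted threshold. Arntl, the activator, was at 2.88, 4.72 and 4.0 TPM in LLC and 11.1, 16.7, 8.27 and 9.42 TPM in LLC + rFibcd1, 2.94-fold in the mean without overlap (log2 1.32 ± 0.27, unadjusted p = 0.000193, adjusted p = 0.0734). Its partner Clock, named here after its values were seen, had a log2 fold change of 0.39 ± 0.15 (unadjusted p = 0.0205, adjusted p = 0.200). These were the only core members higher at an unadjusted p under 0.05, and LLC + rFibcd1 replicate 2 was again the extreme mouse for Arntl.

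The repressors and outputs lay the other way. Per3, with the D-box letters in its window, was at 14, 9.66 and 11.5 TPM in LLC and 6.04, 3.34, 6.81 and 5.63 TPM in LLC + rFibcd1 (log2 -1.0 ± 0.20, adjusted p = 0.0714). Per2 was at 12.1, 9.19 and 16.2 TPM and 3.48, 2.49, 7.03 and 6.58 TPM (log2 -1.25 ± 0.37, adjusted p = 0.165). Ciart, a repressor of the Clock and Arntl complex with 3 E-boxes in its window, was at 6.82, 9.12 and 13.7 TPM and 3.14, 1.66, 3.54 and 4.54 TPM (log2 -1.37 ± 0.34, adjusted p = 0.128). None of these overlapped, and nor did Cry2 (log2 -0.50 ± 0.12) or Bhlhe41 (log2 -0.65 ± 0.17), whereas Per1, at 27.1, 41.1 and 45.5 TPM and 20.8, 17.9, 21.9 and 28.7 TPM, did overlap. Nr1d1, Cry1 and Nr1d2 had log2 fold changes of 0.19 ± 0.28, -0.24 ± 0.18 and -0.25 ± 0.12, with adjusted p of 0.666, 0.387 and 0.219. In all, 7 of 15 core clock genes were lower at an unadjusted p under 0.05, where 17.3% of all genes were, and the median of the list was -0.24 against -0.11 for all genes.

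**Figure D3:**
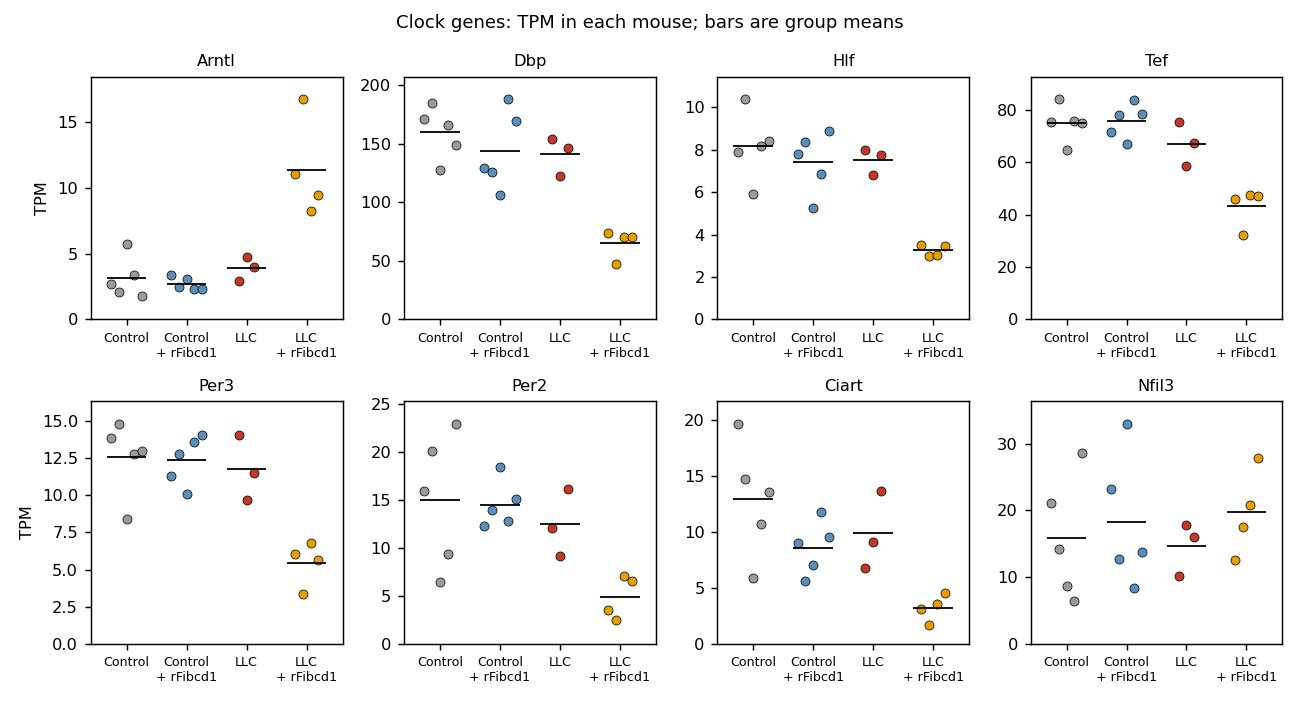
TPM of 8 clock transcripts in each mouse of the 4 groups, 1 point per mouse with bars at the group means. The 4 LLC + rFibcd1 mice lie above the LLC mice for Arntl and below them for Dbp, Hlf, Tef, Per3, Per2 and Ciart without overlap, and overlap them for Nfil3.

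Nuclear-encoded subunits of the respiratory chain formed an even pattern. Oxidative phosphorylation passes electrons through complexes I to IV, pumps protons across the inner mitochondrial membrane and lets complex V make ATP. All 76 subunits tested had a log2 fold change above 0, from 0.08 (Ndufa1) to 0.37 (Cox6a2), with a median of 0.16 against -0.11 for all genes. At an unadjusted p under 0.05, 67 were higher and 0 lower, where 5.46% of all genes were higher, and in 65 the groups did not overlap, where 5.26% of all genes were higher without overlap. A single subunit, Ndufa2, passed the adjusted threshold.

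By complex, the subunits higher at an unadjusted p under 0.05 were 31 of 37 in complex I, 3 of 4 in complex II, 8 of 9 in complex III, 10 of 11 in complex IV and 14 of 14 in complex V, together with cytochrome c. Cox6a2, the muscle form of a complex IV subunit, was at 2132, 2602 and 2130.1 TPM in LLC and 3235, 2836, 2825 and 2900.2 TPM in LLC + rFibcd1 (1.29-fold, log2 0.37 ± 0.08, adjusted p = 0.0875). Atp5l, subunit g of the ATP synthase, was at 1515, 1657 and 1490.3 TPM and 1892, 1825, 1818 and 1753 TPM (log2 0.23 ± 0.04, adjusted p = 0.0581). Sdhb, the iron-sulfur subunit of complex II, was at 531, 562 and 475 TPM and 620.4, 603, 586 and 600.1 TPM (log2 0.21 ± 0.05, adjusted p = 0.130). No LLC + rFibcd1 mouse overlapped an LLC mouse in any of the 3.

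The summed level of the 76 subunits was 43998, 45206 and 40437 TPM in LLC and 50471, 47986, 48808 and 49428 TPM in LLC + rFibcd1, and 49808 ± 1174 TPM in Control (SD, n = 5). The LLC mice were thus the low group and the LLC + rFibcd1 mice lay within the range of tumor-free mice. LLC replicate 3 was the lowest mouse. Without it 50 of the 76 subunits were higher at an unadjusted p under 0.05, without LLC replicate 1 it was 74, and all 76 stayed above 0 in every fit run. The scaling gave 71 without mitochondrially encoded transcripts, 75 with median-ratio scaling and 65 with quantile normalization, where 8.4%, 11.9% and 15.8% of all genes were higher. In the respiratory sum every LLC + rFibcd1 mouse was above every LLC mouse, while in the B cell sum the groups overlapped. A fit with a B cell score as covariate gave 54 subunits higher at that p, where 3.62% of all genes were. Dunn's test gave 12, where 1.44% of all genes were higher. Whether the cell makeup of the samples has a part in this was not tested.

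The 13 transcripts encoded by mitochondrial DNA gave no gene past the unadjusted threshold in the fit to all 17 mice. Their median was 0.07, 11 were above 0 and 0 had an unadjusted p under 0.05 in either direction (limma and Dunn's test, with 2 higher without LLC replicate 2 and 1 without LLC + rFibcd1 replicate 2 or Control + rFibcd1 replicates 1 or 4 or with quantile normalization), and their share of TPM was 43.2%, 44.3% and 41.3% in LLC and 46.4%, 44.2%, 43.7% and 46.5% in LLC + rFibcd1. Among 35 mitochondrial ribosomal proteins, 7 were higher and 0 lower at an unadjusted p under 0.05, where 5.46% of all genes were higher and 17.3% lower. That count was 12, 19 and 23 without mitochondrially encoded transcripts, with median-ratio scaling and with quantile normalization, where 8.4%, 11.9% and 15.8% of all genes were higher. It was 2 without LLC replicate 3, 4 without LLC + rFibcd1 replicate 3 or 4 and 12 without LLC replicate 1.

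In the citric acid cycle 7 of 21 genes were higher and 0 lower at an unadjusted p under 0.05, where 5.46% of all genes were higher and 17.3% lower. The 7 became 3 without LLC replicate 3, 14 without LLC replicate 1 and 15 with median-ratio scaling, which gave 11.9% of all genes higher. Idh2, mitochondrial isocitrate dehydrogenase, was at 726, 912 and 755 TPM in LLC and 1289, 999.9, 1224 and 1036 TPM in LLC + rFibcd1 (1.43-fold, log2 0.51 ± 0.13, adjusted p = 0.129). Cs, citrate synthase, was at 771, 726 and 675 TPM and 793, 772, 810.3 and 790.1 TPM (log2 0.13 ± 0.05, adjusted p = 0.193). In both genes every treated mouse lay above the mock-treated ones.

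In fatty acid uptake and oxidation 9 of 27 genes were higher and 0 lower, where 5.46% of all genes were higher and 17.3% lower, and the 9 became 1 without LLC replicate 3 and 18 without LLC replicate 1. Fabp3, the fatty acid carrier of muscle, was at 3688, 4482 and 3676 TPM and 5063, 4410.2, 5654 and 5421 TPM, with replicate 2 of LLC + rFibcd1 inside the LLC range (log2 0.38 ± 0.10, adjusted p = 0.142). Ldhb, the lactate dehydrogenase subunit of oxidative tissue, was at 1189.8, 1424 and 1125 TPM and 1724, 1492, 1631 and 1492 TPM without overlap (log2 0.35 ± 0.09, adjusted p = 0.134), and of the 23 genes in the glycolysis list it was the 1 that was higher, with 1 lower, against those same shares of all genes.

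Regulators of mitochondrial content varied between mice. Ppargc1a (PGC-1alpha), the coactivator of mitochondrial biogenesis, was at 10.4, 11.9 and 10.1 TPM in LLC and 18.4, 17.5, 15.4 and 34.5 TPM in LLC + rFibcd1, without overlap but with replicate 4 far above the others (log2 0.86 ± 0.42, adjusted p = 0.227). Control mice averaged 33.2 ± 19.4 TPM (SD, n = 5). Vegfa, the angiogenic growth factor, was at 128, 132 and 130.01 TPM and 149, 173, 219 and 202 TPM (log2 0.50 ± 0.11, adjusted p = 0.0881), with all treated mice above the LLC range of 128 to 132 TPM. Pink1, the kinase that marks damaged mitochondria for mitophagy, was at 510.2, 569 and 488 TPM and 714, 649.9, 629 and 643 TPM (log2 0.34 ± 0.07, adjusted p = 0.0714). Of 17 regulators 4 were higher and 1 lower at an unadjusted p under 0.05, where 5.46% of all genes were higher and 17.3% lower. The 4 became 1 without LLC replicate 1 or 3 and 2 without LLC + rFibcd1 replicate 1, 3 or 4, and 7 with median-ratio scaling or quantile normalization, which gave 11.9% and 15.8% of all genes higher.

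**Figure D4:**
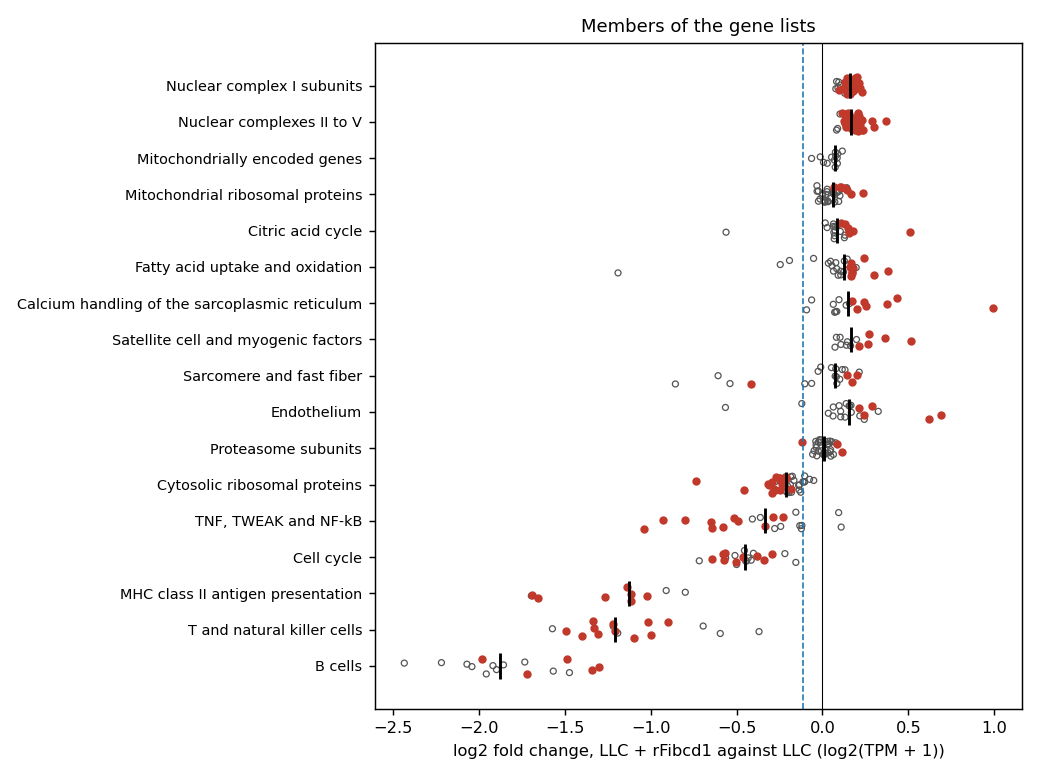
Log2 fold change of LLC + rFibcd1 against LLC for each tested member of 17 gene lists, 1 point per gene, filled red where the unadjusted limma p is under 0.05. Black bars are list medians and the dashed line is the median of all genes at -0.11. The nuclear respiratory subunits all lie to the right of 0, and the B cell, T cell and MHC class II members all to the left.

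Calcium handling of the sarcoplasmic reticulum is the list that holds Sln. Of its 16 members, 14 were above 0, 7 were higher and 0 lower at an unadjusted p under 0.05, and the median was 0.15, where 5.46% of all genes were higher at that p and 27% above 0. Casq2, a calsequestrin that stores calcium in slow and cardiac muscle, was at 142, 155 and 124 TPM in LLC and 182, 188, 189.7 and 198 TPM in LLC + rFibcd1 (1.35-fold, log2 0.43 ± 0.11, adjusted p = 0.126), with no overlap. Atp2a2, the slow-fiber calcium pump, was at 509.5, 603 and 536 TPM and 801, 512, 801 and 776 TPM, where replicate 2 of LLC + rFibcd1 was as low as the LLC mice (log2 0.37 ± 0.16, adjusted p = 0.210). Cacna1s, the voltage sensor of the transverse tubule, was at 182, 195 and 189 TPM and 242, 201, 207 and 248 TPM (adjusted p = 0.164). The 7 became 4 without LLC + rFibcd1 replicate 1 or 4 or LLC replicate 1 or 3, and 4 when the B cell score was fitted as covariate.

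The list of satellite cell and myogenic factors holds regulators of muscle differentiation together with structural genes of the fiber such as Des and Itga7. All 13 members were above 0 with a median of 0.16, and 5 were higher at an unadjusted p under 0.05. Over all genes 5.46% were higher at that p and 27% above 0. Myod1, the myogenic transcription factor, was at 10.9, 8.34 and 9.83 TPM in LLC and 12.5, 15.9, 11.7 and 17.5 TPM in LLC + rFibcd1 (1.48-fold, log2 0.51 ± 0.14, adjusted p = 0.137). Des, the intermediate filament desmin, was at 1138, 1239.5 and 1182 TPM and 1653, 1328, 1347 and 1419 TPM (log2 0.27 ± 0.07, adjusted p = 0.134). Itga7, the laminin receptor of the fiber surface, was at 59.1, 57.4 and 56 TPM and 76.2, 67.4, 67.1 and 67.1 TPM (log2 0.27 ± 0.06, adjusted p = 0.120). The groups did not overlap in these 3 genes. Quantile normalization gave 9 members higher at that p, where 15.8% of all genes were. Dunn's test and the fit with the B cell score each gave 3, where 1.44% and 3.62% of all genes were higher. Leaving out 1 mouse gave 4 to 6.

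At an unadjusted p under 0.05, 5.46% of all genes were higher and 17.3% lower. In the list of sarcomere and fast-fiber genes 3 of 20 were higher and 1 lower at an unadjusted p under 0.05 (1 higher without LLC + rFibcd1 replicate 1 or 4 or LLC replicate 1 or 3). The lower count was 0 to 3 when 1 mouse was left out, and a fit with the B cell score gave 0 higher and 2 lower. In the slow-fiber list 2 of 17 were higher and 0 lower (1 higher without LLC replicate 1 or 3 or LLC + rFibcd1 replicate 1, 3 or 4, against 4 when LLC + rFibcd1 replicate 2 was left out). Among the myosin heavy chains, Myh4 (IIb) was at 1181, 1186 and 1571 TPM in LLC and 763, 404, 732 and 1177 TPM in LLC + rFibcd1 (log2 -0.86 ± 0.52, adjusted p = 0.296). Myh2 (IIa) and Myh7 (slow) had log2 fold changes of 0.12 ± 0.15 and 0.11 ± 0.21 (adjusted p = 0.603 and 0.747). The neuromuscular junction list had 1 of 16 higher and 0 lower, which was 5 higher with quantile normalization and 2 with either of the other scalings, where 15.8%, and 8.4% and 11.9%, of all genes were higher.

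Trim63 (MuRF1) and Fbxo32 (atrogin-1) are the ubiquitin ligases most used as marks of atrophy. Trim63 was at 75.2, 104 and 96.7 TPM in LLC and 193, 116, 124 and 198 TPM in LLC + rFibcd1, higher in the treated mice without overlap (1.71-fold, log2 0.74 ± 0.25, adjusted p = 0.182). Fbxo32 was at 73.2, 98.5 and 71.8 TPM and 174, 96.3, 109.6 and 113 TPM, with overlap (log2 0.57 ± 0.18, adjusted p = 0.175). Cdkn1a (p21), an inhibitor of the cell cycle, was at 16, 24.6 and 22.4 TPM and 47.5, 42.7, 30.7 and 43.1 TPM (1.95-fold, log2 0.94 ± 0.36, adjusted p = 0.198). Over the whole list of atrophy ligases and FoxO targets, 4 of 19 were higher and 3 lower at an unadjusted p under 0.05 with a median of -0.02, where 5.46% of all genes were higher and 17.3% lower. The scalings gave 8, 8 and 7 higher and 2, 0 and 0 lower, in the order without mitochondrially encoded transcripts, median-ratio scaling and quantile normalization, with 8.4%, 11.9% and 15.8% of all genes higher and 12.2%, 9.12% and 5.95% lower. The 3 lower became 0 without LLC replicate 1 or 3 or LLC + rFibcd1 replicate 4, 5 without Control + rFibcd1 replicate 1 and 6 without LLC replicate 2. The median was 0.04 without mitochondrially encoded transcripts, 0.11 with median-ratio scaling and 0.09 with quantile normalization. Control mice averaged 99.1 ± 18.1 TPM of Trim63 and 83.4 ± 10.6 TPM of Fbxo32 (SD, n = 5).

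Other routes of protein turnover and growth control gave counts that moved with the scaling. Proteasome subunits had 2 of 31 higher and 1 lower, and autophagy 2 of 18 higher and 2 lower, at an unadjusted p under 0.05. Over all genes 5.46% were higher and 17.3% lower at that p. In the same order of scalings proteasome subunits had 6, 10 and 4 higher and 0 lower, with 30, 31 and 28 of 31 above 0 against 18 in the deposited TPM. Autophagy genes had 5, 6 and 6 higher and 0 lower. Over all genes these scalings gave 8.4%, 11.9% and 15.8% higher at that p. Genes above 0 were 36.15%, 47.8% and 62.94% of all genes, against 27% in the deposited TPM. Mstn (myostatin), which restrains muscle growth, was at 15.1, 12.1 and 14.2 TPM in LLC and 8.30, 6.15, 8.26 and 13.6 TPM in LLC + rFibcd1 (log2 -0.60 ± 0.24, adjusted p = 0.200), and its pathway list had 0 of 15 higher and 3 lower, where 17.3% of all genes were lower. That 3 was 0 with quantile normalization, 1 with median-ratio scaling, 1 without LLC replicate 3 and 5 without LLC replicate 2. Insulin, IGF and mTOR signaling had 2 of 21 higher and 1 lower (4 higher with median-ratio scaling or quantile normalization). The ERK output and immediate early genes had 1 of 24 higher and 1 lower, and the integrins and fibrinogen-domain proteins, the family to which Fibcd1 belongs, 2 of 23 higher and 3 lower (5 higher and 2 lower with quantile normalization). These lists stand against 5.46% of all genes higher and 17.3% lower in the deposited TPM.

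Lymphocyte transcripts were lower in part of the LLC + rFibcd1 mice. All 16 B cell genes were below 0 with a median of -1.88, and 5 were lower at an unadjusted p under 0.05, where 17.3% of all genes were lower at that p and 27% above 0. Ighm, the constant region of immunoglobulin M, was at 2730.1, 4014 and 2264 TPM and 221, 1629.7, 2829.5 and 150.4 TPM (adjusted p = 0.346). Cxcl13, the chemokine that draws B cells into lymphoid follicles, was at 180.2, 171 and 85.1 TPM and 9.83, 119.6, 75.5 and 23.5 TPM (adjusted p = 0.317). Without LLC + rFibcd1 replicate 1, LLC + rFibcd1 replicate 4 or LLC replicate 3, 0 of the 16 were lower at an unadjusted p under 0.05, without LLC replicate 1 or 2 it was 1, without Control + rFibcd1 replicate 1 it was 10, and without LLC + rFibcd1 replicate 3 it was 14 (limma). No B cell gene passed the adjusted threshold in the main comparison, and with a pseudocount of 0.1 TPM 0 of the 16 passed the unadjusted one. With the B cell score fitted, the log2 fold changes of Ighm and Cxcl13 were 0.54 and 0.28. The score is a mean over genes of this list in the same mice, so such a shift is in large part built in.

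T and natural killer cell genes followed the same mice. Their 17 members summed to 83.1, 93 and 134 TPM in LLC and 11.5, 41.9, 130.1 and 12.3 TPM in LLC + rFibcd1, and all were below 0 and 11 lower at an unadjusted p under 0.05. Over all genes 17.3% were lower at that p and 27% above 0. Cd3e, part of the T cell receptor complex, was at 3.07, 3.30 and 5.44 TPM and 0.516, 1.0, 4.86 and 0.464 TPM (log2 -1.10 ± 0.43, adjusted p = 0.200). The 11 became 1 without LLC + rFibcd1 replicate 1 or 4 or LLC replicate 3, 6 without LLC replicate 2 and 17 without LLC + rFibcd1 replicate 3. When the B cell score was fitted as covariate 0 were lower at an unadjusted p under 0.05. MHC class II genes, which present antigen on B cells, dendritic cells and macrophages, summed to 1827, 1830.04 and 2165 TPM in LLC and 430.2, 1269, 1959 and 582 TPM in LLC + rFibcd1. All 10 were below 0 and 7 were lower at an unadjusted p under 0.05, against the same 17.3% and 27% of all genes. The 7 became 1 without LLC + rFibcd1 replicate 1 or 4 or LLC replicate 1 or 3, 2 without LLC replicate 2 and 4 without Control replicates 1, 3 or 4 or Control + rFibcd1 replicates 2 or 5.

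**Figure D5:**
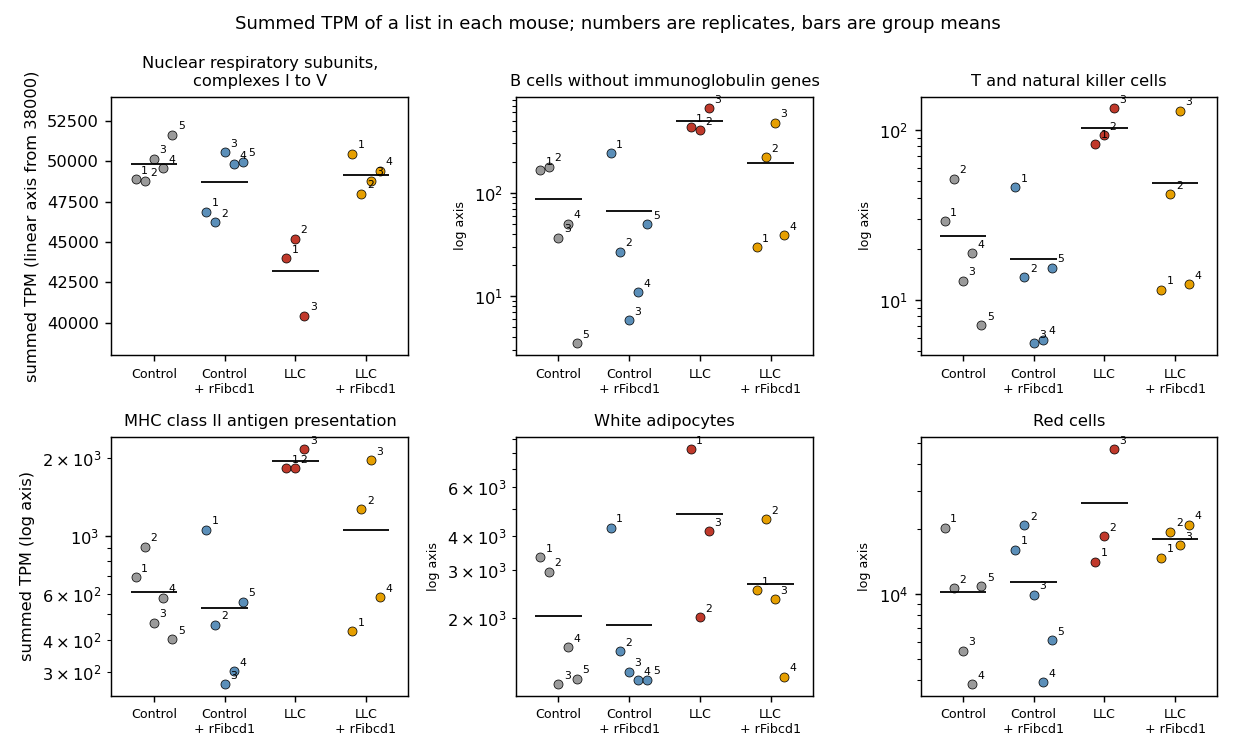
Summed TPM of 6 gene lists in each mouse of the 4 groups, with replicate numbers beside the points and bars at the group means, on a linear axis that does not start at 0 for the respiratory subunits and on log axes for the others. LLC + rFibcd1 lies above LLC without overlap for the respiratory subunits, while in the B cell, T cell and MHC class II panels LLC + rFibcd1 replicates 1 and 4 are low and replicate 3 is beside the LLC mice.

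Inflammatory lists gave unequal counts, and no member passed the adjusted threshold. In the list of TNF, TWEAK and NF-kB genes, 11 of 21 were lower and 0 higher at an unadjusted p under 0.05, with a median of -0.33, where 17.3% of all genes were lower. Nfkb2, a subunit of the noncanonical NF-kB pathway, was at 25.3, 24.9 and 31.6 TPM in LLC and 14.6, 21.6, 24.1 and 16.1 TPM in LLC + rFibcd1 without overlap (log2 -0.51 ± 0.17, adjusted p = 0.182). Vcam1, an adhesion molecule that NF-kB induces on endothelium, was at 6.95, 7.31 and 10.4 TPM and 2.17, 4.74, 6.55 and 2.79 TPM (log2 -0.93 ± 0.24, adjusted p = 0.134). The 11 became 2 without LLC replicate 3 (4.86% of all genes lower), 4 without LLC + rFibcd1 replicate 1 or 4 (7.4% and 6.93%) and 6 without LLC replicate 1 (9.07%). It was 6 with quantile normalization (5.95%) and 3 when the B cell score was fitted (2.71%).

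MHC class I and immunoproteasome genes had 9 of 15 lower and 0 higher, among them B2m, beta-2-microglobulin, at 981, 872 and 1014 TPM in LLC and 393, 752, 854 and 419 TPM in LLC + rFibcd1 (log2 -0.74 ± 0.30, adjusted p = 0.205). That 9 was 0 without LLC + rFibcd1 replicate 1 or 4 or LLC replicate 3 and 1 without LLC replicate 1. Interferon-stimulated genes had 5 of 23 lower, where 17.3% of all genes were. This was 2 without LLC + rFibcd1 replicate 1, 3 without LLC + rFibcd1 replicate 4 or LLC replicate 1 or 3, and 10 without LLC + rFibcd1 replicate 2 or Control + rFibcd1 replicate 1. Chemokines and lymphoid-organizing factors had 7 of 20 lower and 1 higher, and the 7 became 1 without LLC + rFibcd1 replicate 4 or LLC replicate 3, 2 without LLC + rFibcd1 replicate 1 and 4 without LLC replicate 1. IL-6 family genes had 0 of 15 in either direction at an unadjusted p under 0.05 (limma and Dunn's test), and complement had 1 of 17 lower. Cathepsins, the proteases of lysosomes, had 5 of 14 lower and 0 higher, where 17.3% of all genes were lower, and Ctss was at 84.1, 98.5 and 102 TPM and 28.9, 80.7, 83.9 and 30.5 TPM (log2 -0.92 ± 0.55, adjusted p = 0.293). With the B cell score fitted the log2 fold change of Ctss was 0.12. The cathepsin count was 2 without LLC replicate 3, 3 without LLC replicate 1 or LLC + rFibcd1 replicate 1 or 4, and 9 without LLC + rFibcd1 replicate 2 or Control + rFibcd1 replicate 1.

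Myeloid cells gave a mixed picture. Chil3 (Ym1), a chitinase-like protein of alternatively activated macrophages and of neutrophils, was at 1.38, 3.05 and 1.85 TPM in LLC and 11.4, 9.61, 15.7 and 5.02 TPM in LLC + rFibcd1, a 5.0-fold difference without overlap (log2 1.83 ± 0.44, adjusted p = 0.120). Among 22 macrophage genes it was the 1 that was higher at an unadjusted p under 0.05, and 2 were lower, where 5.46% of all genes were higher and 17.3% lower. The macrophage sum was 1383, 1449.6 and 1282 TPM in LLC and 743, 1565, 1069 and 792 TPM in LLC + rFibcd1, with overlap. Neutrophil genes had 0 of 9 in either direction at an unadjusted p under 0.05 (limma and Dunn's test).

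Cytosolic ribosomal proteins and cell cycle genes were below 0 throughout. Of 44 ribosomal protein genes, 0 were above 0 and 19 were lower at an unadjusted p under 0.05, where 17.3% of all genes were, with a median of -0.21. Rpl3, a protein of the large subunit, was at 152, 132 and 175 TPM in LLC and 73.3, 121, 113 and 69.1 TPM in LLC + rFibcd1 (log2 -0.73 ± 0.26, adjusted p = 0.192). The 19 became 5 with median-ratio scaling and 14 without mitochondrially encoded transcripts, where 9.12% and 12.2% of all genes were lower. With median-ratio scaling 6 of these genes were above 0, where 47.8% of all genes were. The count was 0 without LLC replicate 3 (4.86% of all genes lower), 2 without LLC + rFibcd1 replicate 1 or 4 (7.4% and 6.93%) and 11 without LLC replicate 1 (9.07%). It was 30 without LLC + rFibcd1 replicate 3 (21.3%), 31 without Control + rFibcd1 replicate 1 (21.8%) and 0 when the B cell score was fitted (2.71%). Of 22 cell cycle genes 9 were lower at an unadjusted p under 0.05. Mki67, the proliferation marker, was at 2.40, 4.12 and 3.20 TPM and 0.600, 1.64, 4.54 and 0.790 TPM (adjusted p = 0.237), highest of all 7 mice in LLC + rFibcd1 replicate 3, where the B cell genes were also high. The 9 became 1 without LLC + rFibcd1 replicate 1 or 4 or LLC replicate 3, 3 without LLC replicate 2 and 21 without LLC + rFibcd1 replicate 3. How far the cell makeup of a sample moves with these lists was not tested beyond the covariate.

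Most general endothelial genes were above 0. Of 22 endothelial transcripts 20 were above 0 and 5 were higher at an unadjusted p under 0.05, with a median of 0.16. Over all genes 27% were above 0, 5.46% higher and 17.3% lower. Cldn5, the tight-junction protein of vessels, was at 27.6, 21.1 and 17.7 TPM in LLC and 37.4, 34.3, 33.1 and 38.5 TPM in LLC + rFibcd1 (1.62-fold, log2 0.69 ± 0.22, adjusted p = 0.167). Tek, the angiopoietin receptor, was at 15.2, 14.6 and 14.5 TPM and 19, 19.99, 19 and 15.5 TPM (log2 0.29 ± 0.07, adjusted p = 0.120). The 5 became 2 without LLC replicate 3, 3 without LLC + rFibcd1 replicate 3 and 8 without LLC replicate 1, and the scaling gave 10, 13 and 15 in the order used above, with 8.4%, 11.9% and 15.8% of all genes higher. The summed level overlapped, at 4438, 2282 and 2702 TPM in LLC and 3002, 3061, 2817 and 2103 TPM in LLC + rFibcd1. Of 8 genes of venules and activated endothelium, Vcam1 among them, 2 were above 0, 0 were higher and 1 was lower at an unadjusted p under 0.05 (limma), with a median of -0.25.

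Transcripts of liver, fat, mesothelium and blood varied between mice of the same group. Alb was at 4.69, 0.46 and 6.81 TPM in LLC and 2.08, 2.57, 0.249 and 166 TPM in LLC + rFibcd1, and Apoa1, the main protein of high-density lipoprotein, at 1.52, 0.129 and 3.38 TPM and 0.852, 1.68, 0.157 and 58.3 TPM, so that replicate 4 of LLC + rFibcd1 stood far above the other 6 mice in both. Ttr (transthyretin) was high in LLC replicate 3 (44.6 TPM) and LLC + rFibcd1 replicate 4 (20.4 TPM) and at most 0.329 TPM in the other 5. Of 15 liver-type and acute-phase transcripts 10 were above 0, where 27% of all genes were, and 0 were higher and 1 was lower at an unadjusted p under 0.05. Their part in the other results was not tested. White adipocyte transcripts summed to 8265, 2021 and 4149.5 TPM in LLC and 2528, 4589.6, 2347 and 1229 TPM in LLC + rFibcd1, with 2 of 16 lower at an unadjusted p under 0.05. Mesothelial genes, from the lining of the cavities on each face of the diaphragm, summed to 243, 140.1 and 418 and 109, 235, 87.6 and 176 TPM with 0 of 12 in either direction (limma and Dunn's test). Red cell transcripts summed to 14169, 18512 and 46944 and 14773, 19498, 16894 and 20956 TPM with 0 of 7 in either direction (limma and Dunn's test), LLC replicate 3 being the highest. The groups overlapped in the sums for fat, mesothelium and red cells. Fibroblast and collagen genes had 2 of 24 higher and 3 lower (1 lower without LLC + rFibcd1 replicate 1 or LLC replicate 3, 6 and 10 without LLC + rFibcd1 replicates 4 and 2, and 5 without Control + rFibcd1 replicate 5), ATF4 and unfolded protein stress genes 0 of 18 higher and 4 lower (2 without LLC + rFibcd1 replicate 4 or LLC replicate 3, and 7 and 8 without LLC + rFibcd1 replicate 2 and Control + rFibcd1 replicate 1), and heat shock proteins 2 of 18 higher and 0 lower, where 17.3% of all genes were lower and 5.46% higher.

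Outside the lists, the genes with the largest changes that did not overlap included Lrrc30, a leucine-rich repeat protein, at 42.8, 67.6 and 46.3 TPM in LLC and 119, 107, 147 and 118 TPM in LLC + rFibcd1 (2.35-fold, log2 1.23 ± 0.28, adjusted p = 0.101). Ppp1r3c, a targeting subunit that directs a phosphatase to glycogen, was at 59.3, 98 and 96.6 TPM and 98.1, 161, 151 and 178 TPM (log2 0.79 ± 0.36, adjusted p = 0.212). Angptl7, a secreted angiopoietin-like protein, was at 44.5, 42.3 and 31 TPM and 9.89, 9.90, 5.83 and 27.3 TPM, 0.337 times the LLC mean (log2 -1.69 ± 0.49, adjusted p = 0.161). None of these 3 passed the adjusted threshold. Cys1, a protein of the primary cilium, was at 9.47, 7.29 and 12.3 TPM and 3.43, 3.54, 3.92 and 5.79 TPM (log2 -1.04 ± 0.22, adjusted p = 0.0966). Cpxm1, an extracellular carboxypeptidase-like protein, was at 15.2, 14.5 and 16.4 TPM and 3.25, 9.75, 11.1 and 6.46 TPM (log2 -1.03 ± 0.33, adjusted p = 0.176). The leukocyte genes Was, Cd48, Wdfy4 and Nckap1l were lower by log2 values of -1.08, -1.22, -1.09 and -1.01, with adjusted p of 0.206, 0.209, 0.198 and 0.220, and in each LLC + rFibcd1 replicates 1 and 4 were the lowest mice.

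The interaction asks whether the response to rFibcd1 depended on the tumor. It is the change from LLC to LLC + rFibcd1 minus that from Control to Control + rFibcd1. No gene passed an adjusted p of 0.05 (0%, smallest 0.0588, limma), while 796 (5.98%) had a positive and 346 (2.6%) a negative interaction at an unadjusted p under 0.05. Tmem171, Cbfa2t3, Ndufa2 and Sln had interactions of 1.48, 0.60, 0.29 and 1.26, each with an adjusted p of 0.0588, and Asb2 had 1.05 (adjusted p = 0.0691). For Dbp, Hlf and Arntl the interaction was -0.95, -0.88 and 1.41 (adjusted p = 0.180, 0.140 and 0.166). Of the 76 respiratory subunits, 65 had a positive interaction at an unadjusted p under 0.05. Single mice moved the count of interactions, to 11 genes without LLC replicate 2, 3 without LLC + rFibcd1 replicate 2, and 1 when LLC + rFibcd1 replicate 1 or Control + rFibcd1 replicate 3 was left out.

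The same treatment was compared in tumor-free mice. Control + rFibcd1 against Control called no gene at an adjusted p of 0.05 (0%, smallest 0.927, limma), and 584 (4.39%) had an unadjusted p under 0.05. The respiratory subunits had a median log2 fold change of -0.03 there with 1 of 76 at an unadjusted p under 0.05, and their sum was 48688 ± 1987 TPM in Control + rFibcd1 (SD, n = 5). Sln had a mean of 762 ± 92.5 TPM and Dbp of 144 ± 33.7 TPM in Control + rFibcd1 (SD, n = 5), each somewhat below Control. Across genes, the fold changes of rFibcd1 with a tumor and without one share no mice, and their Pearson correlation was 0.36 (Spearman 0.23, n = 13305 genes), given as a description since genes are not independent.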

How the data were processed

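Diaphragm RNA of 17 mice was sequenced as 100-bp paired reads. The authors aligned the reads to mouse build GRCm38 (mm10 in the submitters' processing notes) and used CLC Genomics Workbench to count reads by gene. TPM were deposited for each mouse, and 0 columns lacked a sample. Whether the counting used strand and which annotation release it used are not given in the sources used here. Mitochondrially encoded transcripts are part of the fixed sum, so their share moves all other TPM.

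From the TPM, genes that reached 1 TPM in 3 or more of the 17 mice were kept (13305 of 47643 symbols, of which 24693 were at 0 in every mouse). Values were tested as log2(TPM + 1) with limma 3.58.1 in R 4.3.3, two-sided, in 1 model of the 4 groups (13 residual degrees of freedom, empirical Bayes with trend), with Benjamini-Hochberg adjustment over all 13305 genes. The study used Kruskal-Wallis and Dunn's tests, and Dunn's test is among the alternatives. The labels give no animal batch, so p-values measure the spread between these mice. Depth was estimated from the steps between low TPM values, taken as whole reads within 0.02 of a read, with exon lengths of GENCODE vM21, and entered no test. The computation was tested on simulated data.

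Named were all genes with an adjusted p under 0.05, up to 10 per direction with the largest change among genes at least 1.5-fold changed at an unadjusted p under 0.05, without overlap and with a mean of at least 5 TPM over the 7 mice (no immunoglobulin segments or unnamed models), key genes and up to 3 others of each of 56 lists (988 genes), and the 3 with the smallest interaction p. The groups, the lists and the tests were chosen with earlier results of these data known. Promoters are from RefSeq (GRCm38.p6) and gene positions from GENCODE vM21 on GRCm38, counted from 1. Alternatives were pseudocounts of 0.1 and 0.5 TPM, other filters, 3 other scalings, the 7 mice alone, no trend, Dunn's test, a B cell score as a covariate, a replicate block and leaving out each mouse.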

Additional observations from a re-analysis of the deposited data

Results flagged for a closer look

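In the 4 LLC + rFibcd1 mice, 228 named genes and 59 summed lists were examined for a mouse whose distance to its nearest neighbor was large against the range of the group, by Dixon's criterion, and 16 stood apart. Chance alone gives about 1 in 20, which is near the share found, so the values below are descriptions and not results. The 3 LLC mice were not examined in this way. No cause was tested for any of these values.

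LLC + rFibcd1 replicate 2 was lowest for the clock output genes Dbp (46.98 TPM) and Tef (32.24 TPM), for the calcium pump Atp2a2 (512.0 TPM) and for the respiratory subunit Cox8b (3084 TPM). It was highest for the macrophage marker Adgre1 (10.05 TPM) and for Ucp1 (111.8 TPM), the uncoupling protein of brown fat, which was at 0.0474, 0.92 and 0 TPM in the other mice of that group.

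Replicate 3 was highest for the immunoglobulin constant regions Ighg2b (58.32 TPM) and Ighg2c (414.3 TPM), whose next values were 3.92 and 3.61 TPM. It was also highest for Cd3e (4.864 TPM), the replication gene Mcm2 (6.029 TPM) and the sum of Tmem171 and Cbfa2t3 (22.42 TPM).

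Replicate 1 was highest for the clock receptor Nr1d2 (38.5 TPM), for Itga7 (76.17 TPM) and for the sum of autophagy and mitophagy genes (2295 TPM). Replicate 4 was highest for the immediate early gene Egr1 (18.21 TPM) and for Ppargc1a (34.46 TPM).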

How the results depend on the processing

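The count of 15 genes with an adjusted p under 0.05 was 2 with a pseudocount of 0.1 TPM, 48 without a filter, 6 after rescaling without mitochondrially encoded genes and 9 with median-ratio scaling. It was 0 with the 7 tumor-bearing mice alone, with Dunn's test and when a B cell score was fitted as covariate, where 2168, 305 and 843 genes had an unadjusted p under 0.05, and between 0 and 88 when 1 mouse was left out. For Dunn's test the group sizes made that 0 near fixed in advance. Of the 15 genes, 2, 6, 7 and 9 kept an adjusted p under 0.05 with the 0.1 pseudocount, without mitochondrially encoded genes, with median-ratio scaling and with quantile normalization, 0 with the 7 mice alone, Dunn's test or the B cell score, and 0 to 15 when 1 mouse was left out. All 15 had an unadjusted p under 0.05 in limma with median-ratio scaling, quantile normalization, the 7 mice alone and the B cell score (largest p 0.00249). The 544 genes past the unadjusted threshold and 1.5-fold became 281 when 1 TPM was required in each of the 7 mice, 26 with Dunn's test, 79 with the B cell score and 170 to 907 when 1 mouse was left out. Interactions, 0 genes in limma, were 1 without a filter, with median-ratio scaling or with quantile normalization, 2 with the B cell score and 0 to 11 when 1 mouse was left out. The cause of these shifts was not tested. The labels do not say whether mice with the same replicate number belong together. After group means were removed, the correlations across genes of same-numbered LLC and LLC + rFibcd1 mice were 0.126, -0.163 and -0.0377. Not every mouse correlated best with its own number. With 3 and 4 mice these values cannot decide whether the numbers pair the mice. With a replicate block 0 genes were called, 0 of the 15 genes kept their call, 214 passed the unadjusted threshold with 1.5-fold, and 1546 had an unadjusted p under 0.05. Among single genes, Psmd14 turned to 0.0032 (log2) with median-ratio scaling and Sirt1 to 0.021 with quantile normalization. Some immune genes without a call in the deposited TPM turned from negative to positive values when the B cell score was fitted, Igkc to 1.16, Ighm to 0.54, Cxcl13 to 0.28 and Ctss to 0.12. The score is made from B cell genes of the same mice, so these turns are in part built in and are not read as results. With 3 and 4 mice and values in TPM only, small differences in genes near 1 TPM could not be resolved.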
